A study of Saccharomyces cerevisiae with 7 samples.

Results

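The 8 glycogen metabolism genes of budding yeast, Saccharomyces cerevisiae, were followed across wild-type cells and cells lacking either subunit of the Ssn6-Tup1 corepressor. They were GLG1, GLG2, GSY1, GSY2, GLC3, GPH1, GDB1 and GAC1, chosen by name with earlier results of these data known. Each was represented by 1 probe set among the 5449 genes tested. RNA was measured on 7 single-colour Affymetrix arrays, 1 sample per array, with 3 wild-type samples, 2 with an Ssn6 knockout (ssn6 deletion) and 2 with a TUP1 knockout (tup1 deletion). All samples were of the BY4742 background, a haploid laboratory strain of the alpha mating type with mutations in HIS3, LEU2, LYS2 and URA3, and were taken at an OD600 of 0.8 from 200 mL cultures in YEP medium with 2% glucose. The labels do not say how the knockouts were made or whether each was 1 clone. Nor do they state that replicates came from separate cultures, and every p-value below therefore reflects only the spread between these samples, possibly a technical one.

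Glycogen is the branched glucose polymer that yeast stores as glucose runs low and draws on later. Its chains start on the self-glucosylating proteins Glg1 and Glg2, are lengthened by the glycogen synthases Gsy1 and Gsy2 from UDP-glucose, and are branched by Glc3. Breakdown goes through the phosphorylase Gph1 and the debranching enzyme Gdb1, and Gac1 brings the protein phosphatase Glc7 to glycogen synthase, which that phosphatase activates. The Ssn6-Tup1 complex does not itself recognise particular promoters and is brought to them by repressors, some of which act in glucose-grown cells.

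Each deleted gene was low where the labels place its deletion, while the marker genes gave a mixed picture. CYC8, which encodes Ssn6, read 11.22 to 11.32 on the log2 scale in wild type and 5.62 and 6.07 in the ssn6 deletion, and TUP1 read 11.56 to 12.50 in wild type and 4.69 and 5.07 in the tup1 deletion. LYS2 and URA3 lay under the background floor on all 7 arrays, LEU2 read 5.47 to 5.80, close to it, whereas HIS3, mutated in this strain, read 11.82 to 12.57, far above it. That floor, the 95th percentile of 1746 probe sets for fission yeast genes, was 5.50 to 5.67. The summed linear signal of 4 alpha-cell markers was 23997 to 29148 in wild type, 15495 and 16477 in the ssn6 deletion and 2931 and 3694 in the tup1 deletion. That of 7 a-cell markers was 1783 to 2472, then 27449 and 26735, then 11804 and 12533 on the ssn6 and tup1 arrays, and no marker of either list lay under the floor on any array. The a-cell markers thus summed to more than the alpha-cell markers on all 4 deletion arrays, although the strain is of the alpha mating type. In whole-culture RNA, fewer cells of a type and less RNA per cell cannot be told apart. Wild-type replicate 2 stood apart in RNA quality, with the 3' end of the actin control 2.85 log2 units (2.06 for a further actin control) above the 5' end, against 0.52 to 0.92 (0.30 to 0.61) on the other arrays. Over all genes, the differences between replicate arrays had a standard deviation of 0.197 for the ssn6 pair, 0.409 for the tup1 pair and 0.367 to 0.498 for wild-type pairs.

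Glycogen genes stood higher in both deletions. All 8 read higher on every deletion array than on any wild-type array, where 13.9% of all 5449 genes did so. That pattern was not particular to them. It was seen in 8 of 17 general stress genes and 8 of 23 other genes that act on glycogen, both sets described below. Not all differences of the 8 glycogen genes passed the test. At a threshold of 0.05 in limma's moderated test, adjusted over all genes by the Benjamini-Hochberg method, 4 of 8 rose in the ssn6 deletion (GLG1, GLG2, GPH1 and GAC1) and 6 of 8 in the tup1 deletion (the same 4 with GSY1 and GDB1), and 0 fell. Of all genes, 9.18% passed as higher in the ssn6 deletion and 10.4% in the tup1 deletion. The median log2 difference of the 8 genes was 0.57 in the ssn6 deletion and 0.70 in the tup1 deletion, while the median over all genes was −0.14 and −0.08. Both comparisons use the same wild-type arrays, so they are not independent of each other. The 8 genes were chosen with earlier results of these data known, which limits what their shares can show against all genes.

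**Figure D1:**
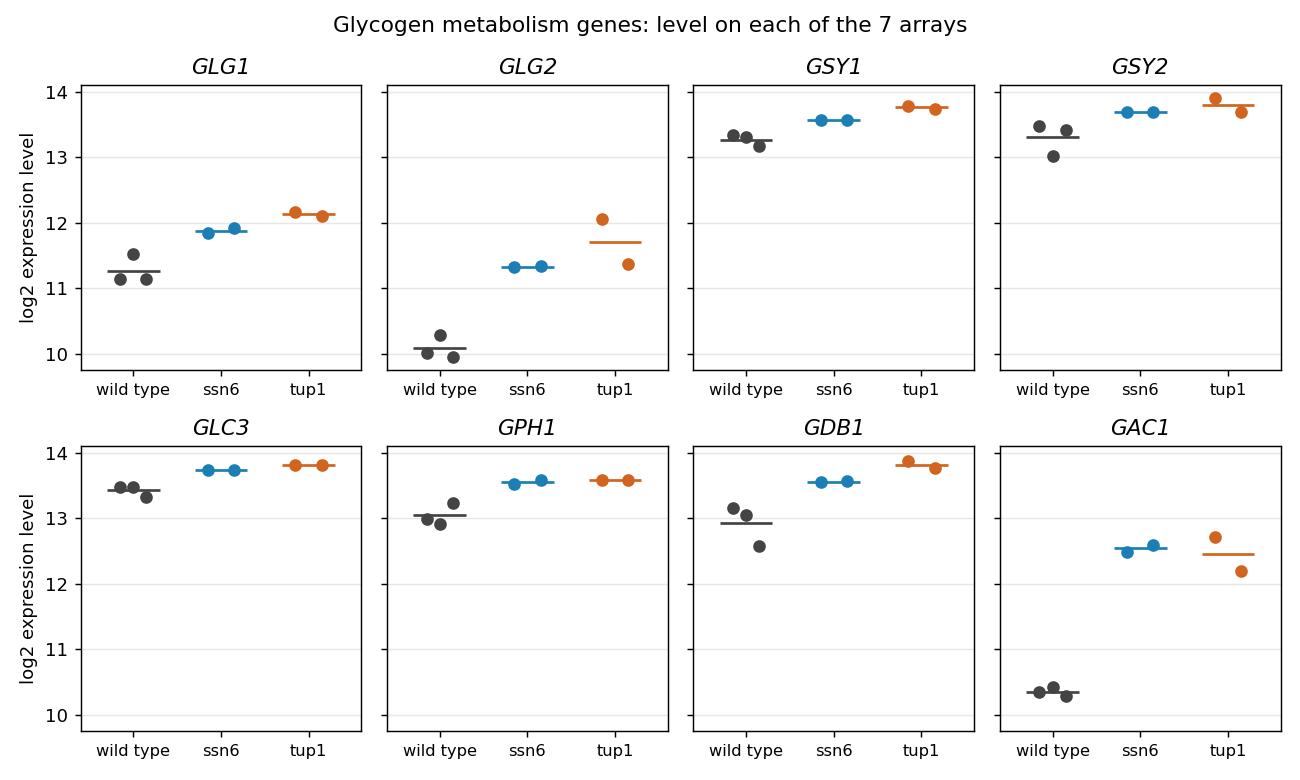
Log2 expression level of each of the 8 glycogen genes (vertical axis) on the 7 arrays, grouped by genotype (horizontal axis), with a dot for each array and a bar at the genotype mean. In every panel all 4 deletion arrays lie above all 3 wild-type arrays, with the widest gaps in GAC1 and GLG2.

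GAC1 (YOR178C), which encodes the targeting subunit of the phosphatase that activates glycogen synthase, changed most among the 8 genes. It read 10.34, 10.43 and 10.28 in wild type, 12.49 and 12.59 in the ssn6 deletion, and 12.71 and 12.20 in the tup1 deletion. The lowest deletion array thus stood 1.77 log2 units above the highest wild-type array. The rise was 4.56-fold in the ssn6 deletion (log2 difference 2.19 ± 0.17, SE, n = 2 and 3 arrays; limma adjusted p = 0.00021) and 4.30-fold in the tup1 deletion (2.10 ± 0.17, adjusted p = 0.000331). Without any single array it stayed between 2.14 and 2.24 in the ssn6 deletion and between 1.85 and 2.36 in the tup1 deletion, and the largest adjusted p was 0.00489.

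The genes for the initiators of glycogen chains rose in both deletions, with the larger differences in GLG2. GLG2 (YJL137C) read 10.02, 10.29 and 9.95 in wild type, 11.33 and 11.34 in the ssn6 deletion, and 12.06 and 11.37 in the tup1 deletion. Its rise was 2.37-fold in the ssn6 deletion (log2 difference 1.25 ± 0.22, limma adjusted p = 0.00951) and 3.08-fold in the tup1 deletion (1.62 ± 0.22, adjusted p = 0.00312). The tup1 arrays lay 0.69 apart, and without the higher, tup1 replicate 1, the difference was 1.28 (adjusted p = 0.0169). With 1 ssn6 array left out GLG2 no longer passed in the ssn6 deletion, with an adjusted p of 0.0763 without replicate 1 and 0.084 without replicate 2, while the difference was 1.25 and 1.24.

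GLG1 (YKR058W) read 11.14, 11.52 and 11.14 in wild type, 11.85 and 11.92 in the ssn6 deletion, and 12.17 and 12.10 in the tup1 deletion. Its highest wild-type value was that of replicate 2, the array with the unequal actin ends. The rise was 1.54-fold in the ssn6 deletion (log2 difference 0.62 ± 0.16, limma adjusted p = 0.0345) and 1.82-fold in the tup1 deletion (0.87 ± 0.16, adjusted p = 0.0102). Without wild-type replicate 2 these differences were larger, 0.75 and 1.0 (adjusted p = 0.00886 and 0.00337). In the ssn6 deletion the call was lost without wild-type replicate 1 (adjusted p = 0.0824) or 3 (0.0721) and without ssn6 replicate 1 (0.181) or 2 (0.242), and in the tup1 deletion without tup1 replicate 1 (0.0718). The proteins Glg1 and Glg2 are relatives, as are Gsy1 and Gsy2, and how far their probe sets can take signal from each other was not tested.

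The glycogen synthase genes were close to 13 or above on every array, and their differences from wild type were small. GSY1 (YFR015C), for the minor synthase, read 13.34, 13.31 and 13.17 in wild type, 13.58 and 13.57 in the ssn6 deletion, and 13.79 and 13.74 in the tup1 deletion. It rose in the tup1 deletion, by 1.41-fold (log2 difference 0.49 ± 0.12, limma adjusted p = 0.0305). Its difference of 0.30 ± 0.12 in the ssn6 deletion did not pass (adjusted p = 0.13). The tup1 call on GSY1 held without wild-type replicate 2 (adjusted p = 0.0316) and was lost without each of the other arrays: wild-type replicate 1 (0.0556) or 3 (0.0584), either ssn6 array (0.0867) or tup1 replicate 1 (0.125) or 2 (0.058).

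GSY2 (YLR258W), for the synthase that makes most of the glycogen as cells approach stationary phase, read 13.48, 13.03 and 13.42 in wild type, 13.70 and 13.70 in the ssn6 deletion, and 13.91 and 13.70 in the tup1 deletion. The groups did not overlap, yet neither difference passed: 0.39 ± 0.17 in the ssn6 deletion (95% confidence interval −0.02 to 0.80, limma adjusted p = 0.155) and 0.49 ± 0.17 in the tup1 deletion (0.08 to 0.90, adjusted p = 0.0819). Its low wild-type value was again that of replicate 2, and without that array the differences were 0.25 and 0.35 (adjusted p = 0.21 and 0.0936).

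GLC3 (YEL011W), for the branching enzyme, had the smallest difference of the 8 genes in the tup1 deletion. It read 13.48, 13.47 and 13.33 in wild type, 13.73 and 13.74 in the ssn6 deletion, and 13.81 and 13.81 in the tup1 deletion. The deletion arrays were higher by 0.31 ± 0.12 (95% confidence interval 0.02 to 0.60, limma adjusted p = 0.115) and 0.38 ± 0.12 (0.09 to 0.67, adjusted p = 0.064), and neither passed. GSY1, GSY2 and GLC3 read 13.03 to 13.91 on all arrays, and the highest value of any probe set in the table was 14.65. The values carry no mark of saturation, and whether bright signals understate these differences was not tested.

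Of the breakdown enzymes, the phosphorylase gene rose in both deletions and the debranching gene in the tup1 deletion. GPH1 (YPR160W) read 12.99, 12.91 and 13.23 in wild type, 13.53 and 13.59 in the ssn6 deletion, and 13.58 and 13.58 in the tup1 deletion. The rises were 1.43-fold (log2 difference 0.51 ± 0.14, limma adjusted p = 0.0436) and 1.45-fold (0.54 ± 0.14, adjusted p = 0.0346). Both calls lay near the threshold. The ssn6 call on GPH1 held without wild-type replicate 3 (adjusted p = 0.0279) and was lost without wild-type replicate 1 (0.0951) or 2 (0.059), ssn6 replicate 1 (0.213) or 2 (0.293) or either tup1 array (0.0554). The tup1 call held without wild-type replicate 2 (0.0464) or 3 (0.0234) and was lost without wild-type replicate 1 (0.0821), either ssn6 array (0.0862) or tup1 replicate 1 (0.137) or 2 (0.0844).

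GDB1 (YPR184W) read 13.15, 13.05 and 12.57 in wild type, 13.55 and 13.57 in the ssn6 deletion, and 13.88 and 13.76 in the tup1 deletion. Its wild-type arrays spread over 0.58, the widest of the 8 genes, with replicate 3 lowest. It rose 1.86-fold in the tup1 deletion (log2 difference 0.90 ± 0.19, limma adjusted p = 0.0174), a call lost without tup1 replicate 1 (0.115). The difference of 0.63 ± 0.19 in the ssn6 deletion did not pass (95% confidence interval 0.18 to 1.09, adjusted p = 0.0591). Without wild-type replicate 3 the GDB1 differences were 0.46 and 0.72.

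**Figure D2:**
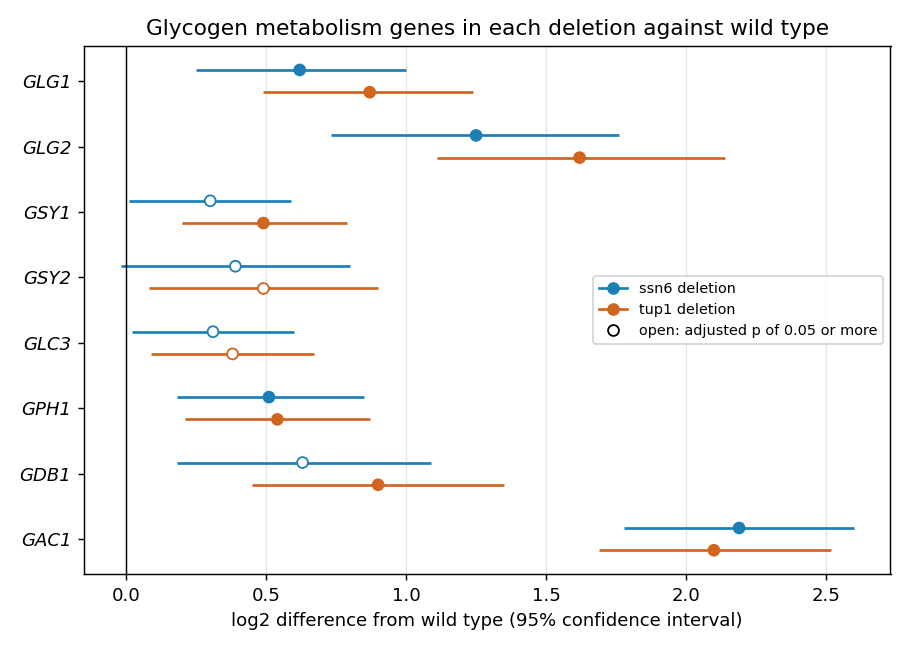
Log2 difference from wild type (horizontal axis) of each glycogen gene in the ssn6 and the tup1 deletion, with 95% confidence intervals from the limma fit. Filled points passed an adjusted p of 0.05 and open points did not, and only the ssn6 interval of GSY2, from −0.02, reaches below 0.

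The number of glycogen genes that passed depended on single arrays, of wild type and of either deletion, and so did the number over all genes. Over all genes, 1059 passed in the ssn6 deletion with all arrays and 770 without wild-type replicate 1. In the tup1 deletion these numbers were 1255 and 825. Fewest of all genes passed without an array of the deletion tested, which leaves 1 array of that genotype. Of the 4 rises in the ssn6 deletion, 1 was left without ssn6 replicate 1 and 1 without ssn6 replicate 2, 2 without wild-type replicate 1, and 3 without each other array. Of the 6 rises in the tup1 deletion, 2 were left without tup1 replicate 1, 4 without tup1 replicate 2, wild-type replicate 1 or either ssn6 array, 5 without wild-type replicate 3 and 6 without wild-type replicate 2. GAC1 passed in both deletions whichever array was left out, and GLG2 did so in the tup1 deletion. The direction of all 8 differences stayed upward in both deletions without each array and under every other setting tried.

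**Figure D3:**
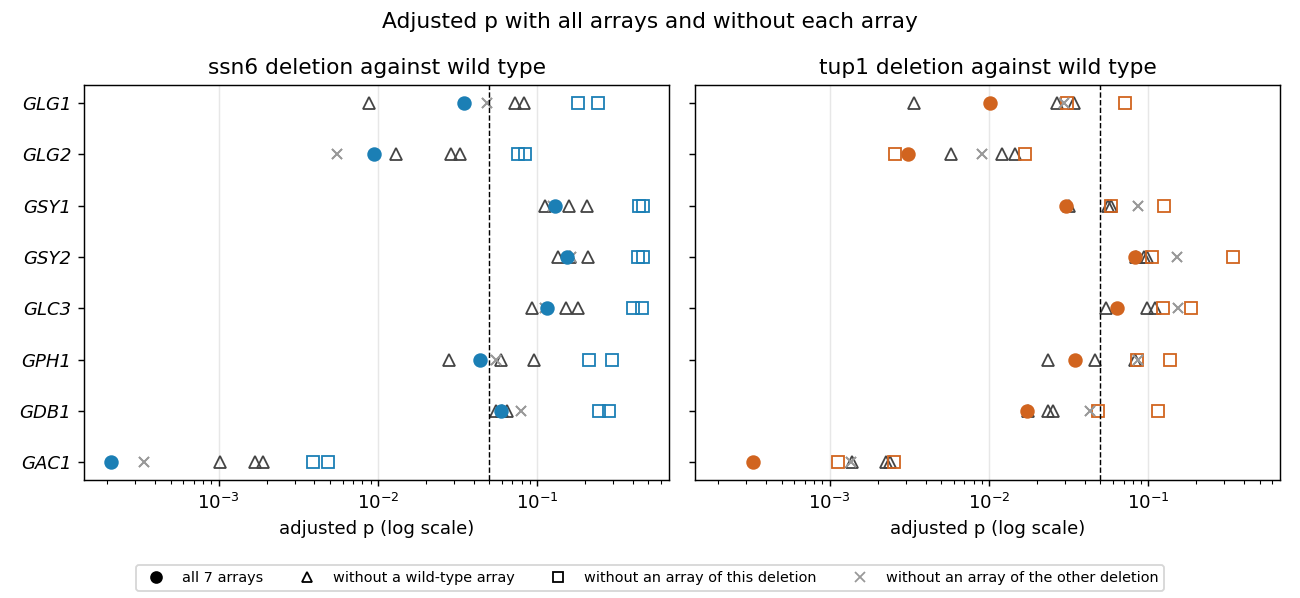
Adjusted p (horizontal axis, log scale) of each glycogen gene against wild type in the ssn6 deletion (left) and the tup1 deletion (right), with all 7 arrays (filled circles) and without each array in turn (open symbols and crosses). The dashed line marks 0.05, and the GAC1 symbols, up to 0.00489, all lie left of it.

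Set directly against each other, the deletions were not told apart in any of the 8 genes. None passed the test (lowest limma adjusted p = 0.423, for GLG2), 0 had an unadjusted p under 0.05, and 2.4% of all genes passed. Levels in the ssn6 deletion were lower than in the tup1 deletion by 0.03 ± 0.15 (GPH1) to 0.38 ± 0.24 (GLG2) in 7 genes, and GAC1 was 0.08 ± 0.19 higher. The order in GAC1 depended on a single array, since without tup1 replicate 2 the difference was −0.17. In order of mean level, wild type came lowest for all 8 genes, and the deletions above it were neighbours that did not differ past the threshold.

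This does not show that the deletions act alike. The 95% confidence intervals of the difference, ssn6 minus tup1, ran from −0.94 to 0.19 for GLG2, −0.76 to 0.23 for GDB1 and −0.65 to 0.17 for GLG1. They were narrowest for GSY1 (−0.51 to 0.13) and GLC3 (−0.39 to 0.25). Every ssn6 array lay below every tup1 array for 5 of the 8 genes, GLG1, GLG2, GSY1, GLC3 and GDB1, and 39.2% of all genes showed that pattern.

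**Figure D4:**
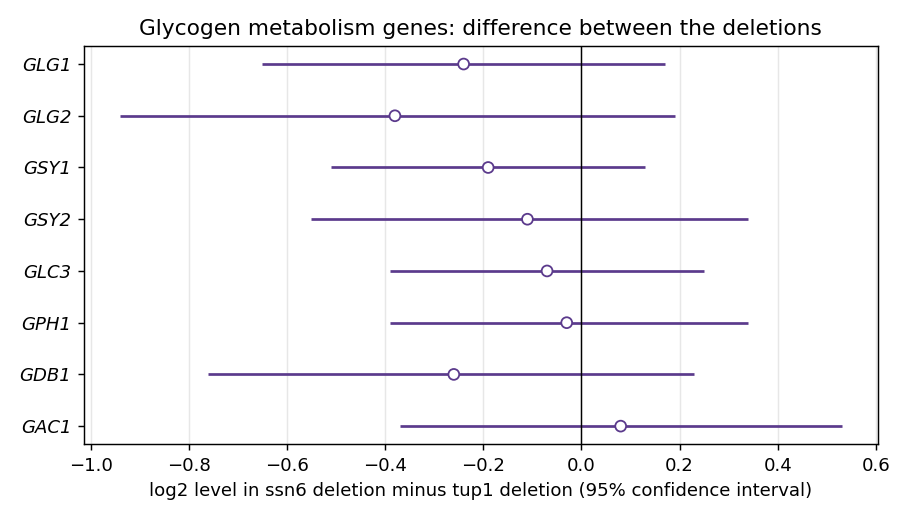
Log2 level in the ssn6 deletion minus that in the tup1 deletion (horizontal axis) for each glycogen gene, with 95% confidence intervals from the limma fit. All points are open, for an adjusted p above 0.05, and every interval includes 0.

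Other genes that act on glycogen gave a mixed picture. Of 23 such genes measured, 3 rose and 2 fell in the ssn6 deletion, and 7 rose and 2 fell in the tup1 deletion (limma adjusted p under 0.05). Of all genes, 9.18% rose and 10.3% fell in the ssn6 deletion, and 10.4% rose and 12.6% fell in the tup1 deletion, so the ssn6 counts lay near the share of all genes. Their median log2 difference was 0.05 in the ssn6 deletion and 0.34 in the tup1 deletion. SGA1, which encodes the glucoamylase that degrades glycogen in sporulating cells, rose most. It read 10.39, 10.39 and 10.13 in wild type, 12.71 and 12.74 in the ssn6 deletion, and 12.63 and 12.40 in the tup1 deletion. That made it 5.36-fold (2.42 ± 0.15, adjusted p = 5.67e-05) and 4.63-fold higher (2.21 ± 0.15, adjusted p = 0.000115), with calls that held without each array.

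Among genes for the phosphatase, relatives of GAC1 rose in part. PIG1, whose product also binds glycogen synthase and the phosphatase, read 8.65, 8.58 and 8.60 in wild type, 9.83 and 9.76 in the ssn6 deletion and 10.19 and 9.39 in the tup1 deletion. It rose by 1.19 ± 0.23 (limma adjusted p = 0.0128) and 1.18 ± 0.23 (adjusted p = 0.0119), and the ssn6 call was lost without either ssn6 array (adjusted p up to 0.103). GIP2, for a further protein that binds Glc7, rose in the tup1 deletion by 1.48 ± 0.30 (adjusted p = 0.0137) and read 0.97 ± 0.30 in the ssn6 deletion (adjusted p = 0.0596). Without wild-type replicate 2, the array with the unequal actin ends, GIP2 passed in the ssn6 deletion too, at 1.26 (adjusted p = 0.00931), as it did after quantile normalization (0.0372) and median centring (0.041). The third relative, PIG2, read −0.41 ± 0.15 in the ssn6 deletion and 0.35 ± 0.15 in the tup1 deletion, and neither passed (adjusted p = 0.0936 and 0.124). The catalytic subunit gene GLC7 read −0.21 ± 0.16 and −0.07 ± 0.16 (adjusted p = 0.371 and 0.782). GLC8, for a regulator of Glc7, rose in the tup1 deletion by 0.44 ± 0.13 (adjusted p = 0.0462), a call lost without any of the 7 arrays (up to 0.187). The GIP2 call was lost without tup1 replicate 1 or 2 (up to 0.102).

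In the supply of UDP-glucose, 1 gene fell in both deletions. PGM1, for the minor phosphoglucomutase, read 11.72, 11.22 and 11.82 in wild type, 10.24 and 10.33 in the ssn6 deletion, and at most 10.26 in the tup1 deletion. It fell by 1.30 ± 0.20 on the log2 scale in the ssn6 deletion (limma adjusted p = 0.00578) and by 1.46 ± 0.20 in the tup1 deletion (adjusted p = 0.00362), with the ssn6 call lost without either ssn6 array (up to 0.0624). PGM2, for the major phosphoglucomutase, read 0.34 ± 0.18 and 0.46 ± 0.18 (adjusted p = 0.224 and 0.106). UGP1, which makes UDP-glucose, read 0.09 ± 0.12 and 0.12 ± 0.12 (adjusted p = 0.597 and 0.512). HXK2, the main hexokinase gene of glucose-grown cells, fell by 0.65 ± 0.13 in the tup1 deletion (adjusted p = 0.0135, and 0.0784 without tup1 replicate 1) and read −0.10 ± 0.13 in the ssn6 deletion (adjusted p = 0.61).

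Genes for the kinases that act on glycogen synthase or its regulators moved in part. PSK2, for a PAS kinase that phosphorylates glycogen synthase, rose in both deletions, by 0.80 ± 0.16 (limma adjusted p = 0.0162) and 0.76 ± 0.16 (adjusted p = 0.017), and its relative PSK1 in the tup1 deletion by 0.64 ± 0.13 (adjusted p = 0.0149). PCL6, for a cyclin of the kinase Pho85, fell by 0.58 ± 0.13 in the ssn6 deletion (adjusted p = 0.0209) and read 0.11 ± 0.13 in the tup1 deletion. The ssn6 calls on PSK2 and PCL6 were lost without either ssn6 array (up to 0.133 and 0.181). In the tup1 deletion PSK2 was lost without either tup1 array or wild-type replicate 1 (up to 0.0882), and PSK1 without tup1 replicate 1 (0.0872). SNF1, PHO85, PCL7, PCL8 and PCL10 did not pass in either deletion.

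IGD1, which encodes an inhibitor of the debranching enzyme, rose in the tup1 deletion by 0.79 ± 0.16 (limma adjusted p = 0.0153, and 0.102 without tup1 replicate 1) and read 0.31 ± 0.16 in the ssn6 deletion (adjusted p = 0.208). The genes of the stress activators Msn2 and Msn4, which are known to act on several glycogen genes, did not pass with all arrays: MSN2 read −0.27 ± 0.27 and −0.02 ± 0.27, and MSN4 0.80 ± 0.34 and 0.66 ± 0.34. Without wild-type replicate 1, MSN4 passed in the ssn6 deletion at 1.10 (adjusted p = 0.0491). Between the deletions 0 of the 23 genes passed, where 2.4% of all genes did. An unadjusted limma p under 0.05 was seen in 7 of the 23, and that share was not counted over all genes. The 3 rises in the ssn6 deletion became 1 without either ssn6 array and the 2 falls became 0. The 7 rises in the tup1 deletion became 2 without tup1 replicate 1 and 4 without tup1 replicate 2, and the 2 falls became 1 without tup1 replicate 1. Without wild-type replicate 2, 2 genes passed as lower in the ssn6 than in the tup1 deletion, PIG2 (−0.76, adjusted p = 0.0349) and PCL6 (−0.70, adjusted p = 0.0423).

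**Figure D5:**
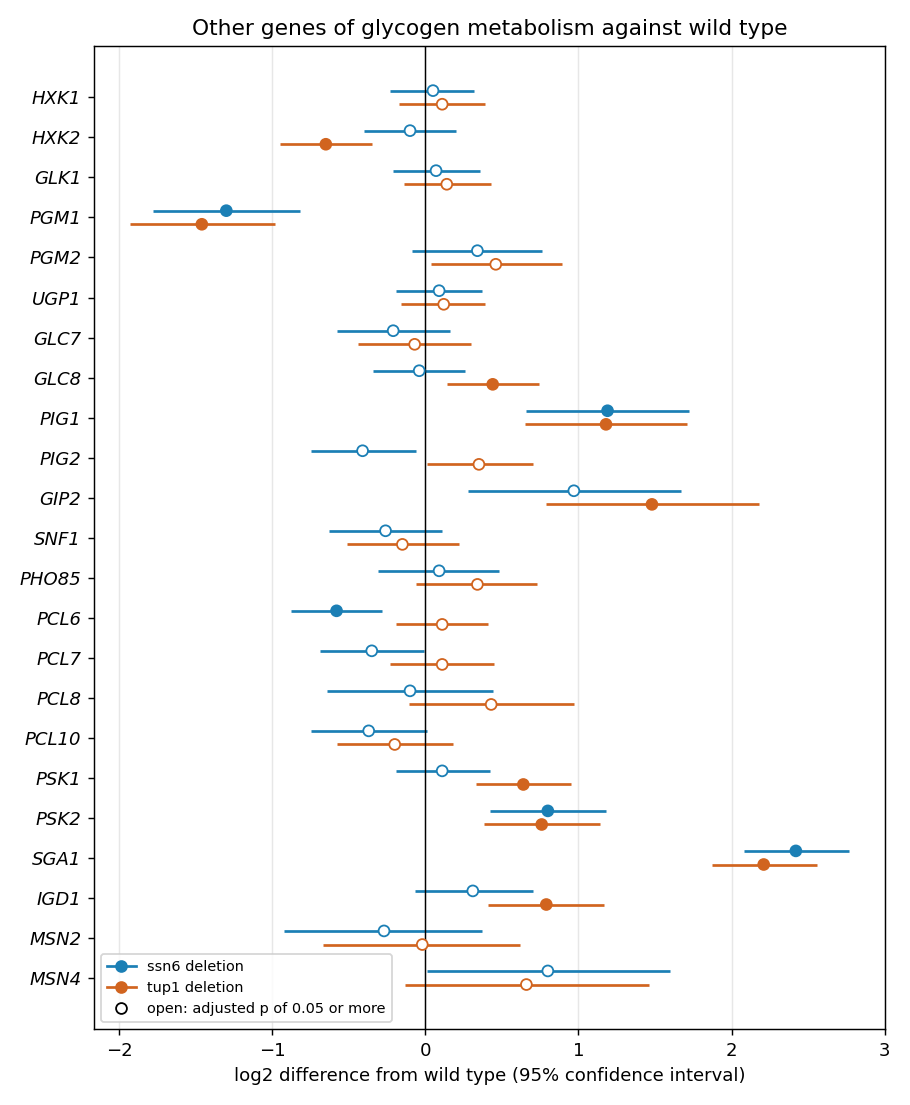
Log2 difference from wild type (horizontal axis) of 23 further genes that act on glycogen, in the ssn6 and the tup1 deletion, with 95% confidence intervals from the limma fit and filled points for an adjusted p under 0.05. SGA1 lies farthest to the right, at 2.42 and 2.21, and PGM1 farthest to the left, at −1.30 and −1.46.

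General stress genes, many of which share activators with the glycogen genes, moved in part. Of 17 measured, 4 rose (CTT1, SOL4, GRE1 and RTN2) and 1 fell (SSA4) in each deletion, where 9.18% (ssn6) and 10.4% (tup1) of all genes rose and 10.3% and 12.6% fell. Their median log2 difference was 0.07 in the ssn6 deletion and 0.26 in the tup1 deletion, against −0.14 and −0.08 over all genes. Every ssn6 array lay above every wild-type array for 8 of the 17 genes and below for 5. Every tup1 array lay above for 14 and below for 3. The shares of all genes with these patterns in 1 deletion alone were not counted, so these counts cannot be set against them. Arrays of both deletions lay above for 8, against 13.9% of all genes. The mean log2 level of the 17 genes was 13.21 to 13.33 in wild type, 13.56 and 13.55 in the ssn6 deletion and 13.78 and 13.70 in the tup1 deletion. The mean of the 8 glycogen genes was 12.14 to 12.25, then 12.97 and 13.00, then 13.24 and 13.03. The mean of 16 rRNA control probe sets, 8.46 to 12.49 in wild type, was 8.72 and 7.57 in the ssn6 deletion and 6.85 and 9.39 in the tup1 deletion. Their part in the glycogen result was not tested. The 4 stress rises in the ssn6 deletion became 2 without wild-type replicate 1, 1 without ssn6 replicate 1 and 0 without ssn6 replicate 2, and those in the tup1 deletion became 2 without tup1 replicate 1.

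Profiles over the 7 arrays, each set to 0 at its own wild-type mean, were compared for the 4 glycogen genes whose arrays spanned at least 1 log2 unit. The measure was the root-mean-square difference, in log2 units, from the 2127 other genes with such a span, and it is a description of arrays that share a wild-type baseline. GAC1 was closest to CYB2 (0.157), a lactate dehydrogenase gene, then to the glycogen glucoamylase gene SGA1 (0.166) and the amino acid permease gene GAP1 (0.168). GLG2 was closest to YKL162C (0.160), CRC1 (0.161), a mitochondrial carnitine carrier gene, and ECI1 (0.165), for a peroxisomal enzyme of fatty acid oxidation.

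The other pair of profiles lay nearer to each other. GDB1 was closest to the catalase gene CTT1 (0.090), USV1 (0.107), for a stress-linked transcription factor, and AKR2 (0.116). GLG1 was closest to ESL2 (0.094), YNL115C (0.097) and again CTT1 (0.111). GLG1 and GDB1 differed by 0.168, which placed GLG1 15th among the genes nearest to GDB1 and GDB1 26th among those nearest to GLG1. GAC1 and GLG2 differed by 0.57, and GAC1 and GLG1 by 1.076. The measure depends on the size of the differences, so genes with rises of like size tend to lie close.

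Genes next to the glycogen genes were called about as often as genes in general. Of the 16 protein-coding genes adjacent to the 8 glycogen genes in the gene order of assembly R64, 13 were tested. Calls, in either direction, made up 15.4% of them in the ssn6 and 23.1% in the tup1 deletion, against 19.4% and 23.0% of all genes. Of these 13, 0 rose and 2 fell in the ssn6 deletion, SGV1 beside GPH1 (−0.54 ± 0.13, limma adjusted p = 0.0285) and YLR257W beside GSY2 (−0.56 ± 0.15, adjusted p = 0.039). In the tup1 deletion 2 rose, CMK1 beside GSY1 (0.73 ± 0.16, adjusted p = 0.0208) and MPC54, a spore formation gene beside GAC1 (1.36 ± 0.17, adjusted p = 0.00195), and SGV1 fell by 0.48 ± 0.13 (adjusted p = 0.0384). Their median log2 difference was −0.22 in the ssn6 and −0.15 in the tup1 deletion. The 2 calls in the ssn6 deletion became 0 without wild-type replicate 1 or either ssn6 array, and the 3 in the tup1 deletion became 1 without tup1 replicate 1 or either ssn6 array.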

How the data were processed

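The authors deposited a table of log2 values, 1 per probe set and array, already normalized. Per the submitters' processing notes, RMA and limma were used, in roles and versions that are not stated. The authors' scanner files were not used here. Of 10928 probe sets, 5498 have 1 budding yeast gene in the platform annotation, with 12 symbols updated through a table of assembly R64, and 47 genes with several probe sets were represented by the one with the highest mean. With limma 3.58.1 (lmFit, then eBayes) in R 4.3.3, genotype means were fitted for 5449 genes over all 7 arrays, with 4 residual and 3.19 prior degrees of freedom (two-sided tests, Benjamini-Hochberg over all genes, threshold 0.05). Standard errors and intervals are the moderated ones of this fit. The 8 genes, the 23 further genes, the stress and marker lists and the rules were chosen with earlier results of these data known. Named were the 8 genes, the further genes that passed in any comparison, and the 3 closest profiles per gene; PGM2, UGP1, GLC7, PIG2, the kinases and stress activators that did not pass, and the called stress and adjacent genes, were named after their values were seen, and the look at adjacent genes was added then. The replicate number was not used as a block in the reported fit, because no pairing is known from the labels. Deviations from the genotype means correlated at 0.285 and 0.18 for same-numbered wild-type and tup1 arrays. For same-numbered pairs with an ssn6 array they correlated at −0.361 to −0.268. In a genotype with 2 arrays the deviations mirror each other, so the ssn6 and tup1 pairs share the same value by construction. These correlations therefore cannot decide whether the numbers pair the arrays. The number of arrays limits the precision. No sequences were given for these genes, and none are shown. Python 3.11.15 with matplotlib 3.10.9 drew the figures.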

Additional observations from a re-analysis of the deposited data

How the results depend on the processing

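In the ssn6 deletion, 7 of the 8 glycogen genes rose with trended and robust eBayes settings and 7 with array weights, against 4 in the reported fit; 2 rose with the replicate number as a block (GLG2 and GAC1), 2 at an adjusted p of 0.01, and 1 to 3 without each array. In the tup1 deletion 2 of the 8 rose at 0.01, against 6, 4 with the replicate block and 2 to 6 without each array; 0 fell in any setting. Of the 23 further genes, at 0.01 there was 1 rise and 1 fall left in each deletion, with 1 fall in each with the replicate block. Without each array they gave 1 to 4 rises and 0 to 2 falls in the ssn6 and 2 to 6 rises and 1 to 2 falls in the tup1 deletion. Between the deletions, trended and robust settings gave 1 of these as higher, array weights 1 higher and 3 lower, only the genotypes compared 1 lower, and leaving out each array 0 to 2 lower. Over all genes, 1059 passed in the ssn6 deletion, 2139 with array weights, 397 at 0.01 and 279 to 1196 without each array. In the tup1 deletion 1255 passed, 767 with only the genotypes compared, 456 at 0.01 and 427 to 1366 without each array. Between the deletions 131 passed, 412 with array weights, 58 with the replicate block, 25 at 0.01 and 5 to 257 without each array. Differences near 0 changed sign: GLC8 in the ssn6 deletion, −0.04 in the reported fit, read 0.01 after median centring, with the block and with the block crossed, and −0.09 to 0.01 without each array. Without 1 array, PCL8 in the ssn6 deletion went from −0.10 to 0.04, and in the tup1 deletion GLC7 from −0.07 to 0.08, SNF1 from −0.15 to 0.05 and MSN2 from −0.02 to 0.15. Between the deletions GPH1 read 0.01 after median centring and GAC1 −0.17 to 0.34 without each array. The block changed calls without any pairing known from the labels, and wild-type replicate 3 has no partner in it. Over all genes it left 708 calls in the ssn6 deletion, against 1059, and 838 in the tup1 deletion, against 1255. Crossing the numbers in the ssn6 deletion, chosen after seeing the data because ssn6 and tup1 arrays of one number deviated oppositely (−0.268), gave 3 and 5 rises of the 8. With quantile normalization 4 and 6 of the 8 rose and with median centring 5 and 6, and all 8 stayed above every wild-type array in both. The array weights were 3.651 for each ssn6 array, 0.286 to 1.237 for wild type and 0.606 for each tup1 array. The ssn6 arrays were also the replicate pair with the smallest spread (standard deviation of differences 0.197). The cause of the shifts between settings was not tested.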
